A study of Mus musculus with 6 samples.

Results

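The smooth muscle contractile genes described here are 10 named genes of the mouse, namely Acta2, Actg2, Tagln, Cnn1, Cnn2, Smtn, Lmod1, Myh11, Mylk and Myocd. They were chosen by name, and each was found once among the 54532 genes of the deposited table. All 10 had reads, and 9 of them had enough reads to be tested, with at least 15 reads in every library. RNA sequencing was performed on immortalized epicardium-derived cardiosphere-derived cells (iECDCs), which were grown from heart ventricle explants of C57BL/6 mice. The cells had been transduced with a lentivirus carrying human telomerase reverse transcriptase under the CMV promoter and selected with puromycin, and both groups carried this transgene and were taken at passage 30. The 3 control libraries came from these cells without induction, and the 3 induced libraries came from cells given 10 µM 5-azacytidine for 3 days and then kept for 4 weeks in medium with 2% serum. 5-azacytidine is a cytidine analog that blocks DNA methylation and was used here to start cardiac differentiation. The label and the methods of the study differ in the basal medium and the length of the later culture, and the culture of the sequenced control cells is not given in the sources used here, so drug, serum and time in culture cannot be told apart. The methods of the study call its replicates biological but give fewer per condition than the 3 libraries per group that were deposited, and the sources do not say whether these came from separate cultures, so p-values measure the spread between these libraries, which may be partly technical.

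Smooth muscle cells contract when calcium and calmodulin activate myosin light chain kinase (Mylk), which phosphorylates the regulatory light chain so that smooth muscle myosin (Myh11) can pull on filaments of smooth muscle actin (Acta2 and Actg2). Calponins (Cnn1, Cnn2), transgelin (Tagln) and smoothelin (Smtn) bind these actin filaments, and leiomodin (Lmod1) helps to build them. Many of these genes are read by serum response factor (SRF), which binds a short DNA element called the CArG box, and myocardin (Myocd) is the SRF partner that defines the smooth muscle and cardiac programs. Some members are also used outside muscle: Acta2 marks activated fibroblasts, and Cnn2 is widely expressed in cells that move or spread.

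The contractile genes did not move together. In the quasi-likelihood test of edgeR, adjusted by Benjamini and Hochberg's method over 14246 genes, 4 of the 9 tested members rose in induced cells (Myh11, Actg2, Mylk and Smtn) and 4 fell (Cnn1, Lmod1, Acta2 and Cnn2), while Tagln did not pass an adjusted p of 0.05. Among all genes tested, 32.6% rose and 32.2% fell, or 64.8% in either direction, so most genes of these cells passed the same test. The groups did not overlap in CPM (counts scaled to library size with edgeR's TMM factors) for 9 of the 9 tested members, against 68.6% of all genes tested. The median log2 fold change, given throughout as induced minus control, was -0.61 over the 9 tested members and -0.01 over all genes. With 4 members higher and 4 lower, the member median is the value of Tagln alone, so it does not show a shift of the set. Of the called members, 5 changed by 2-fold or more, which were Cnn1, Lmod1, Myh11, Actg2 and Mylk. The same share was not counted over all genes tested, but 81.5% of them changed less than Acta2, whose change was just short of 2-fold. In these bulk libraries, fewer cells of a type and less RNA per cell cannot be told apart.

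**Figure D1:**
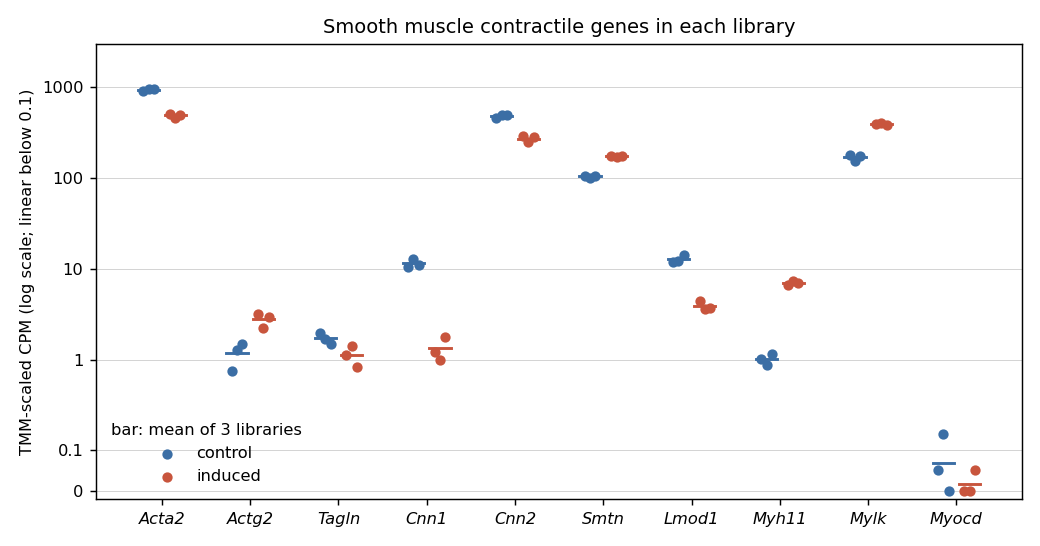
TMM-scaled CPM (log scale, linear below 0.1) of the 10 contractile genes in each library, with control libraries in blue and induced libraries in red; each point is 1 library and the bar is the mean of 3. Acta2, Cnn1, Cnn2, Lmod1 and Tagln lie lower in the induced libraries, Mylk, Smtn, Myh11 and Actg2 lie higher, and Myocd lies near 0 in all 6.

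Total counts were 19041133 to 19823369 reads per library, and a count of 0 allowed up to 0.151 to 0.158 CPM, with 3 counts as the bound. These bounds and the interval of a read ratio speak of counting error alone, because the reads carried no molecular identifiers and may not be independent. The spread between libraries of a group was small, with a biological coefficient of variation of 5.82% as estimated by edgeR. Induced library 2 stood apart by reads of skeletal muscle genes: Acta1, the skeletal muscle actin, had 2, 1 and 0 reads in control libraries and 17, 123 and 1 reads in induced libraries 1 to 3. Across genes, induced library 2 also differed more from libraries 1 and 3 (chi-square per degree of freedom 8.91 and 8.04) than those from each other (4.68). The contractile genes gave the same directions without that library. Of the tissue markers, Tbx18, the epicardial transcription factor for which the study names these cells, was at 63.7 ± 4.90 CPM in control and 50.7 ± 4.60 CPM in induced libraries (SD, n = 3).

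Smooth muscle alpha-actin (Acta2, ENSMUSG00000035783, chr19:34241090-34255590, minus strand, with coordinates here and below from GENCODE M21 on GRCm38) was the most abundant member. Its level was 909.8, 959.6 and 966 CPM in control libraries 1 to 3 and 514, 454 and 499.6 CPM in induced libraries 1 to 3. Every induced library lay below every control library. The mean fell from 945 ± 30.7 to 489.5 ± 31.2 CPM with 3 libraries per group, and the log2 fold change was -0.95 (SE 0.05, edgeR adjusted p = 7.21e-12), or 0.518 of the control level (95% interval 0.484 to 0.554). Smooth muscle gamma-actin (Actg2, ENSMUSG00000059430, chr6:83512905-83536265, minus strand), the enteric isoform, went the other way at a far lower level. It had 15, 25 and 30 reads in control and 60, 43 and 57 reads in induced libraries, or 0.760, 1.27 and 1.5 CPM against 3.19, 2.26 and 2.99 CPM. All induced libraries were above all control libraries, and the gene rose 2.38-fold (95% interval 1.65 to 3.43, log2 fold change 1.25, SE 0.27, edgeR adjusted p = 5.39e-04). No stretch of 100 bases of the Acta2 or Actg2 transcripts occurs in transcripts of another gene in GENCODE M21.

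Because SRF reads many of these genes through the CArG box, 300-base windows around the start sites (250 bases before and 50 after, RefSeq, GRCm38.p6) were searched for it on both strands. Windows were at hand for Acta2, Cnn1, Cnn2, Smtn, Lmod1 and Mylk, that of Mylk lying at an internal start of the gene. The box was found in the windows of Acta2 and Cnn2, the 2 most abundant members and both lower in induced cells. It is shown in capitals with 10 bases on each side, on the gene's own strand, at chr19:34255438-34255467 and chr19:34255388-34255417 on the minus strand for Acta2 and at chr10:79988534-79988563 on the plus strand for Cnn2:
Acta2, bases -84 to -75: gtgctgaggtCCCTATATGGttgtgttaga
Acta2, bases -34 to -25: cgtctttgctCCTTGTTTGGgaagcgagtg
Cnn2, bases -56 to -47: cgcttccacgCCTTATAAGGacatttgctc
Positions count from the RefSeq start site. GENCODE M21 starts Acta2 farther upstream, so that both of its boxes fall in the annotated first exon (5′ UTR) there, whereas the deposited table ends the gene before them; the Cnn2 box lies upstream of the gene in both annotations. The box of Cnn2 is an exact match, as found in 1.63% of all 32851 windows, and those of Acta2 each differ from the pattern by 1 base. A box that matched exactly or with 1 mismatch was found in 9.98% of all windows, and 0.822% held at least 2 of them. The windows of Cnn1, Smtn, Lmod1 and Mylk held none, which says only that these letters are not in these windows. The number of CpG dinucleotides, the site of DNA methylation in mammals, was 33 in the Cnn2 window, 11 for Smtn, 7 for Lmod1, 6 for Acta2 and Cnn1 and 4 for Mylk, beside a median of 7 (quartiles 3 and 20) over all windows. These matches and counts are descriptions of the reference sequence, since neither SRF binding nor methylation was measured in these libraries.

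Among the proteins that bind the actin filament, both calponins of the set fell, Cnn1 more than any other tested member. Calponin 1 (Cnn1, ENSMUSG00000001349, chr9:22099216-22109630, plus strand), which inhibits the actomyosin ATPase in differentiated smooth muscle, had 10.4, 12.9 and 11.2 CPM in control and 1.22, 0.999 and 1.78 CPM in induced libraries. These were 205, 254 and 223 reads against 23, 19 and 34 reads, with no overlap between the groups. The fall to 0.117 of the control level (95% interval 0.0907 to 0.150) was a log2 fold change of -3.10 (SE 0.19, edgeR adjusted p = 4.90e-11), and 97.3% of all tested genes had a smaller change in either direction. Calponin 2 (Cnn2, ENSMUSG00000004665, chr10:79988584-79996062, plus strand), the broadly expressed form, had 463, 494 and 498 CPM in control and 287, 247 and 282 CPM in induced libraries. All control libraries were above all induced libraries, and the fold was 0.561 (95% interval 0.520 to 0.605, log2 fold change -0.83, SE 0.06, edgeR adjusted p = 2.54e-10).

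Leiomodin 1 (Lmod1, ENSMUSG00000048096, chr1:135324807-135368065, plus strand), an actin nucleator of smooth muscle, had 12, 12.2 and 14.4 CPM in control and 4.41, 3.58 and 3.67 CPM in induced libraries. The groups did not overlap, and the gene fell to 0.302 of its control level (95% interval 0.252 to 0.363, log2 fold change -1.73, SE 0.13, edgeR adjusted p = 2.05e-09). Smoothelin (Smtn, ENSMUSG00000020439, chr11:3517523-3540612, minus strand), a marker of contractile smooth muscle cells, rose instead. Its level was 106, 101 and 106 CPM in control and 176, 169 and 176 CPM in induced libraries, with every induced library above every control library. The rise was 1.66-fold (95% interval 1.56 to 1.78, log2 fold change 0.73, SE 0.05, edgeR adjusted p = 2.42e-10). The exons of Smtn share 16.3% of their bases with Gm11946 on the opposite strand, which had at most 22 reads in any library. Because the strand setting of the counting is not given, this low count does not tell whether Smtn reads in those bases were lost.

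Transgelin (Tagln, ENSMUSG00000032085, chr9:45929619-45936058, minus strand), also called SM22 and an early marker of the smooth muscle lineage, was low in both groups. It had 39, 33 and 30 reads in control and 21, 27 and 16 reads in induced libraries, or 1.98, 1.68 and 1.5 CPM against 1.12, 1.42 and 0.839 CPM. The induced libraries were all below the control libraries, but the difference did not pass the test over all genes (log2 fold change -0.61, SE 0.29, edgeR adjusted p = 0.0718). It did pass without induced library 2 (log2 fold change -0.81, adjusted p = 0.0384 by the same edgeR test), and adjusted p ranged from 0.0272 to 0.252 over all alternatives. The Tagln value is uncertain for another reason: 67.9% of its exon bases lie under exons of genes on the opposite strand, Gm48529 and Pcsk7, and the strand setting of the counting is not given in the sources used here. Gm48529 itself had 2 to 13 reads per library and Pcsk7 had 613 to 721.

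**Figure D2:**
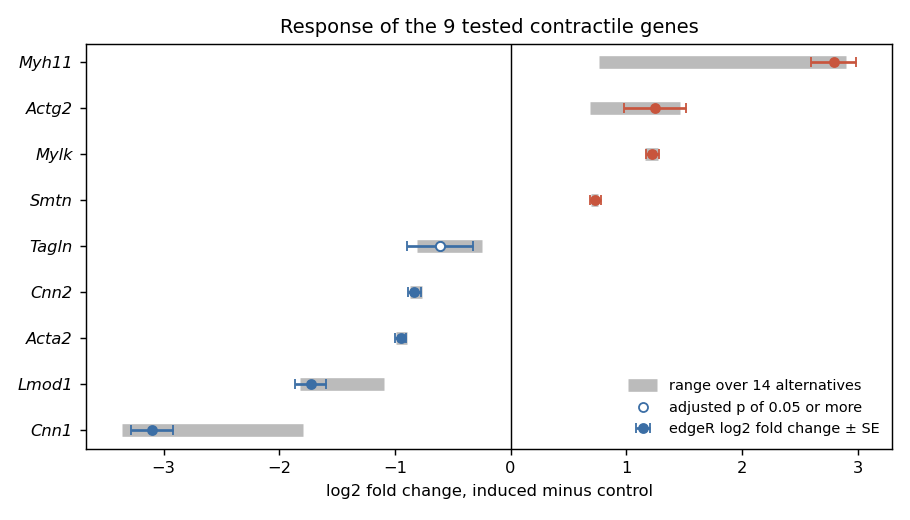
Log2 fold change (induced minus control, x axis) of the 9 tested contractile genes from edgeR, as points with SE bars in red where higher and blue where lower, with grey bars for the range over 14 alternative analyses; the open point is Tagln, which did not pass an adjusted p of 0.05. No range crosses 0, and the widest grey bars belong to the low genes Myh11, Cnn1 and Actg2, where adding 1 to FPKM shrinks the change.

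The motor and its activating kinase both rose. Smooth muscle myosin heavy chain (Myh11, ENSMUSG00000018830, chr16:14194535-14291372, minus strand), the most restricted marker of mature smooth muscle among the members, had 20, 17 and 23 reads in control and 126, 140 and 135 reads in induced libraries. On the CPM scale these were 1.01, 0.866 and 1.15 against 6.70, 7.36 and 7.08, with every induced library above every control library. The rise was 6.93-fold (95% interval 5.34 to 9.0, log2 fold change 2.79, SE 0.19, edgeR adjusted p = 3.74e-10). Myosin light chain kinase (Mylk, ENSMUSG00000022836, chr16:34745210-35002420, plus strand), whose gene also encodes a long form used outside muscle, had 179, 155 and 174 CPM in control and 394, 408 and 386 CPM in induced libraries. The groups were far apart compared with their spread, and the rise was 2.34-fold (95% interval 2.17 to 2.52, log2 fold change 1.23, SE 0.05, edgeR adjusted p = 7.13e-13). Counts per gene do not tell the smooth muscle form of Mylk from the long form, and 6.85% of its exon bases lie under genes on the opposite strand.

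Myocardin (Myocd, ENSMUSG00000020542, chr11:65176561-65269989, minus strand) was near 0 in both groups, with 1, 3 and 0 reads in control and 0, 0 and 1 reads in induced libraries. With 4 reads against 1 read, the ratio of induced to control was 0.254 with a 95% exact interval of 0.00516 to 2.57, so no difference was detectable at this depth, and the gene was not tested. A separate list of SRF and its co-regulators did not hold Myocd, and all of its genes had enough reads to be tested. Of the 16 (SRF itself, its myocardin-related and ternary complex partners, and factors known to act on smooth muscle genes), 4 rose, 7 fell and 5 did not pass the test, with a median log2 fold change of -0.12. Among all genes tested, 32.6% rose and 32.2% fell. One of the falls, that of Elk1, was at the threshold (log2 fold change -0.16, edgeR adjusted p = 0.0491) and was lost under most alternatives. Srf fell from 78.1 ± 0.960 to 50.9 ± 0.683 CPM (SD, n = 3), a difference of -0.62 on the log2 scale (adjusted p = 4.81e-09 in edgeR). Mkl1, which encodes the actin-regulated SRF partner MRTF-A, fell from 86.3 ± 1.76 to 49.7 ± 2.01 CPM (-0.80 on the log2 scale, edgeR adjusted p = 2.79e-10). Its relative Mkl2 was at 41.6 ± 1.01 and 44.8 ± 1.82 CPM and did not pass (log2 fold change 0.10, edgeR adjusted p = 0.119). Klf4, which represses smooth muscle genes in vessel walls, rose from 30.7 ± 0.820 to 52.7 ± 1.72 CPM (0.78 on the log2 scale, adjusted p = 1.13e-09 in edgeR). Prrx1, a mesenchymal homeobox factor, had the largest change of the list and fell from 486 ± 2.74 to 131 ± 7.39 CPM (-1.89 on the log2 scale, adjusted p = 5.57e-16 in edgeR). Tead1, a factor of the Hippo pathway that binds muscle promoters, rose from 219.9 ± 2.72 to 348 ± 34.8 CPM, with a log2 fold change of 0.66. Csrp2, a LIM protein of smooth muscle, fell from 27.1 ± 1.65 to 15.9 ± 3.70 CPM, with a log2 fold change of -0.77.

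Levels of different genes can be compared only per length, for which the deposited FPKM values were used (fragments scaled to gene length and library depth). In control libraries the order was Acta2 (526 ± 17.1 FPKM, SD, n = 3), Cnn2 (195 ± 7.61), Smtn (23.6 ± 0.654), Mylk (14.9 ± 1.2), Cnn1 (4.16 ± 0.467), Lmod1 (3.23 ± 0.337), Tagln (0.857 ± 0.119), Actg2 (0.750 ± 0.243), Myh11 (0.132 ± 0.0189) and Myocd (0.0104 ± 0.0120). In this order only Tagln and Actg2 were neighbours whose libraries overlapped. In induced libraries the order was Acta2 (274 ± 17.9 FPKM), Cnn2 (110.5 ± 9.15), Smtn (39.6 ± 0.929), Mylk (35.1 ± 0.936), Actg2 (1.8 ± 0.315), Lmod1 (0.983 ± 0.117), Myh11 (0.926 ± 0.0427), Tagln (0.565 ± 0.145), Cnn1 (0.487 ± 0.148) and Myocd (0.00272 ± 0.00471). Here the libraries of Lmod1 and Myh11 overlapped, as did those of Tagln and Cnn1. The place of Tagln in both orders is uncertain, because most of its exon bases lie under genes on the opposite strand. Acta2, Cnn2, Smtn and Mylk led in both groups, while Cnn1 moved from the fifth place to the ninth and Myh11 from the ninth to the seventh. The summed level of the 10 genes was 768.6 ± 24.6 FPKM in control and 464 ± 27.5 FPKM in induced libraries, and Acta2 made up 68.4 ± 0.123% and 59.1 ± 0.378% of it. The share of Mylk went from 1.94 ± 0.190% to 7.59 ± 0.647% and that of Smtn from 3.08 ± 0.152% to 8.54 ± 0.316%.

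The members belong to families with other genes that serve cells outside smooth muscle, and on the same per-length scale the members of 5 families and the transgelins differed widely in how much of their family they made up. Of the summed FPKM of 6 actin genes, Acta2 held 22.9 ± 0.215% in control and 17.5 ± 0.507% in induced libraries, beside the cytoplasmic actins Actb (43.3 ± 0.0959% and 44.2 ± 0.575%) and Actg1 (33.8 ± 0.13% and 38.0 ± 0.940%). Actb and Actg1 fell as well, with log2 fold changes of -0.54 and -0.40 (edgeR adjusted p = 2.83e-09 and 5.25e-08), beside -0.95 for Acta2. Cnn1 held 1.20 ± 0.126% and 0.229 ± 0.0637% of the calponins, and the third member of that family, Cnn3, fell from 449.9 ± 7.80 to 305 ± 4.12 CPM (log2 fold change -0.56). Tagln was 0.315 ± 0.0531% and 0.337 ± 0.112% of the transgelins, nearly all of which was Tagln2, which fell from 572 ± 16.7 to 354 ± 27.7 CPM (log2 fold change -0.69). The share of Tagln is uncertain, because most of its exon bases lie under genes on the opposite strand, while those of Tagln2 are not shared.

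The myosin heavy chains of these cells were mostly the non-muscle forms. Myh11 was 0.107 ± 0.0138% of the family in control and 0.793 ± 0.0489% in induced libraries, while Myh9 went from 79.8 ± 0.495% to 67.9 ± 1.39% and Myh10 from 20.1 ± 0.509% to 31.3 ± 1.37%. Myh9 fell (log2 fold change -0.32) and Myh10 rose (0.55). Mylk made up 98.8 ± 0.547% and 94.5 ± 0.799% of the light chain kinases, although the skeletal muscle kinase Mylk2 rose from 8, 3 and 1 reads to 109, 90 and 111 reads (log2 fold change 4.71, SE 0.35, edgeR adjusted p = 9.39e-10). Smtn went from 93.5 ± 0.739% to 74.2 ± 0.360% of the smoothelins, and the smoothelin-like gene Smtnl2 rose from 6.37 ± 0.780 to 52.6 ± 1.24 CPM (3.04 on the log2 scale, SE 0.09, adjusted p = 1.24e-15 in edgeR). Of the 17 family genes outside the members, 9 were tested, of which 3 rose, 5 fell and 1 (Mylk3) did not pass. Among all genes tested, 32.6% rose and 32.2% fell.

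**Figure D3:**
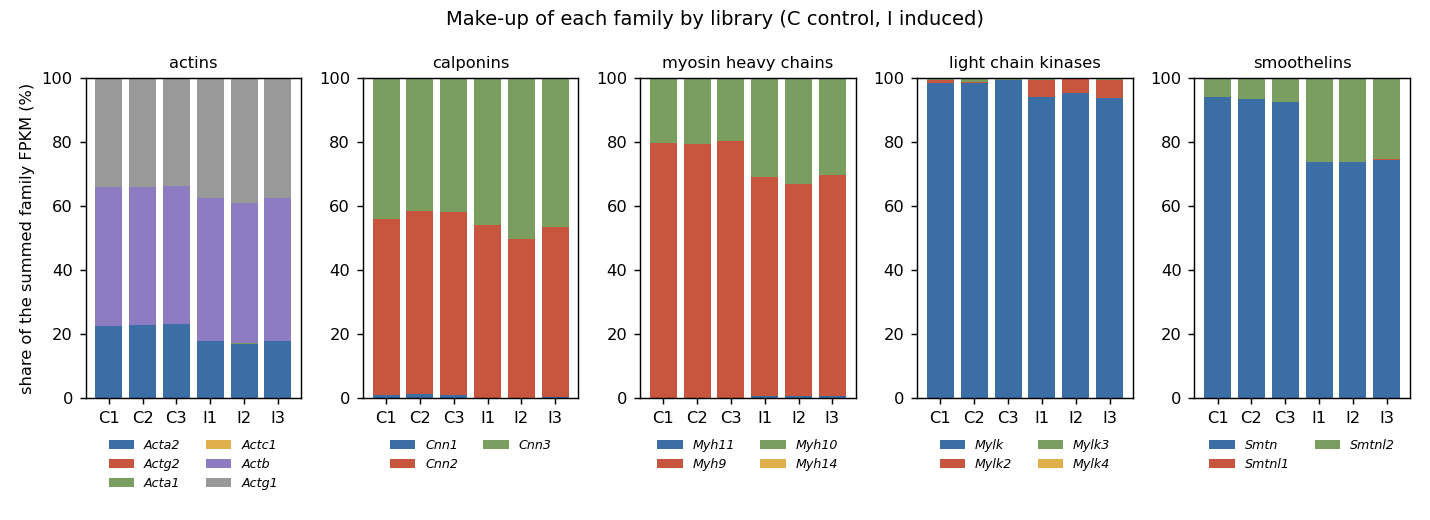
Share of the summed family FPKM (y axis, percent) held by each gene of 5 families in each library, with control libraries C1 to C3 and induced libraries I1 to I3 on the x axis. Acta2 takes a smaller part of the actins and Smtn a smaller part of the smoothelins in the induced libraries, and Myh11 and Cnn1 are too small to see or nearly so.

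The lists of related pathways were mixed too, as were all genes tested, of which 32.6% rose and 32.2% fell. Of 17 genes that control the regulatory light chain, 7 rose, 2 fell and 8 did not pass (median log2 fold change 0.15). Myl9, the regulatory light chain typical of smooth muscle, fell from 61.8 ± 3.01 to 20.2 ± 0.723 CPM (-1.61 on the log2 scale, adjusted p = 1.16e-13 in edgeR), whereas Myl12a and Myl12b, which encode the light chains of non-muscle myosin, rose from 151 ± 2.07 to 277 ± 9.46 CPM and from 3.27 ± 0.669 to 10.7 ± 0.492 CPM (log2 fold changes 0.88 and 1.71). The transcripts of this last pair are closely alike, so reads could have been divided between them or dropped, and both values are uncertain. In GENCODE M21, 26.7% of the exon bases of Myl12b also lie in another gene entry of that name on the same strand. For Myl12a, 19.9% of the exon bases are shared with other genes. The essential light chain Myl6 was at 549 ± 16.2 and 555 ± 94.1 CPM (log2 fold change 0.01, edgeR adjusted p = 0.893), a value that without induced library 2 was 0.15 with an adjusted p of 0.00136 by the same edgeR test. Calm3, a calmodulin gene, rose from 443 ± 14.6 to 525 ± 23.9 CPM, a log2 fold change of 0.25.

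Of 19 genes of the actin cytoskeleton and its attachments, 6 rose, 8 fell and 5 did not pass (median log2 fold change -0.01). Of all genes tested, 64.8% passed. Desmin (Des), the intermediate filament of muscle, had 3, 2 and 9 reads in control and 91, 94 and 98 reads in induced libraries (log2 fold change 4.36, edgeR adjusted p = 1.28e-09). It was named after its values were seen. Vimentin (Vim), the intermediate filament of mesenchymal cells, fell from 4068 ± 55.8 to 2607 ± 25.5 CPM (-0.64), as did the tropomyosin gene Tpm1 (-0.64) and the filamin gene Flna (-0.52). Synpo2, an actin-bundling protein of muscle Z-discs, rose from 0.724 ± 0.171 to 8.14 ± 0.668 CPM (3.48 on the log2 scale, adjusted p = 4.72e-11 in edgeR).

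Of 23 receptors, channels and other genes of mural cells (smooth muscle cells and pericytes), 13 were tested, of which 6 rose and 7 fell (median log2 fold change -0.27). Among all genes tested, 32.6% rose and 32.2% fell. Itga8, an integrin of smooth muscle, had the largest change of the tested genes of this list and rose from 1.14 ± 0.40 to 22.7 ± 2.13 CPM (4.30 on the log2 scale, adjusted p = 9.06e-14 in edgeR). The angiotensin receptor gene Agtr1a rose from 5.25 ± 0.634 to 37.5 ± 1.52 CPM (log2 fold change 2.84), and the inositol trisphosphate receptor gene Itpr1, which releases stored calcium, rose from 67.1 ± 1.38 to 136 ± 7.79 CPM (1.02). Notch3, a receptor of mural cells, fell from 64.2 ± 2.17 to 25.4 ± 0.766 CPM (-1.34), and the platelet-derived growth factor receptor gene Pdgfrb fell from 299.9 ± 7.21 to 249 ± 5.94 CPM (-0.27). Kcnmb1, a potassium channel subunit of smooth muscle, was at 0 reads in all 6 libraries.

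**Figure D4:**
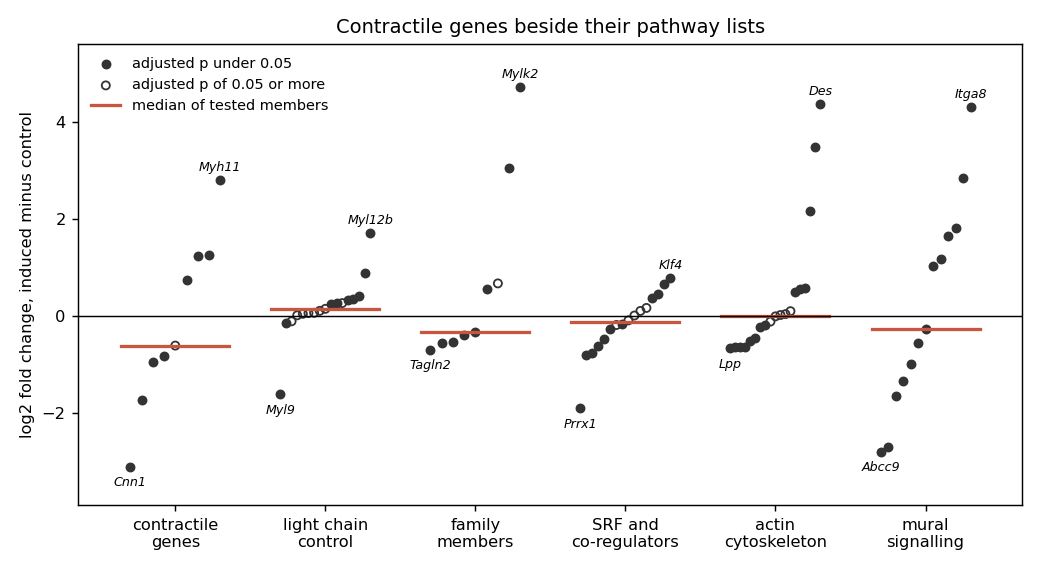
Log2 fold change (induced minus control, y axis) of every tested gene of the contractile genes and of 5 lists of related genes, with filled points past an adjusted p of 0.05 in edgeR, open points not past it and a red bar at the median of each list; the lowest and highest gene of each list is named. All 6 sets hold genes on both sides of 0.

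Of the 6 lists of markers of other cell types, 5 had summed levels that did not overlap between the groups, and the skeletal muscle list did overlap. Lack of overlap was common in these data: of all genes tested, 68.6% did not overlap in CPM and 64.8% passed the test. Those shares are of single genes, whereas the sums are over lists. The summed level of 14 cardiomyocyte genes was 15 to 18.1 CPM in control and 62.4 to 65.3 CPM in induced libraries, of which Tnnt2 made up most (13.1 ± 1.62 and 58.2 ± 1.92 CPM). Of these 14 genes, 4 were tested, of which 2 rose (Tnnt2 and Myl7) and 2 did not pass. The atrial light chain gene Myl7 had 0 reads in every control library and 34, 20 and 20 reads in induced libraries. Tnni3, the next in level after Tnnt2, did not pass the test (log2 fold change 0.41, edgeR adjusted p = 0.144), and the heart myosin gene Myh6 had 1 read over the 6 libraries. The 8 epicardial genes summed to 474 to 481 CPM in control and 1459 to 1586 CPM in induced libraries, with 5 higher and 3 lower of the 8. Upk3b carried most of that sum (254 ± 0.674 and 942 ± 62.9 CPM). Msln (log2 fold change 3.01), Bnc1 (1.58), Tcf21 (1.49) and Wt1 (1.34) rose as well, while Krt19 (-1.24), Aldh1a2 (-2.50) and Tbx18 (-0.33) fell. The 9 fibroblast genes summed to 18728 to 19771 and 22822 to 24083 CPM, with 6 higher and 3 lower. Lum (log2 fold change 4.37), Postn (3.71), Dcn (2.19), Col3a1 (0.70), Thy1 (0.54) and Col1a2 (0.33) rose. Col1a1 (-0.36), Pdgfra (-0.73) and Fap (-1.16) fell. The 11 skeletal muscle genes summed to 1.72 to 1.94 CPM in control and 1.26 to 12.6 CPM in induced libraries, and neither of the 2 tested, Mylpf and Tnnt3, passed. The 8 endothelial genes summed to 9.82 to 11.2 and 12.7 to 13.1 CPM, of which Egfl7 rose (log2 fold change 0.37) and Vwf did not pass (log2 fold change -0.37, edgeR adjusted p = 0.345), and the 8 leukocyte genes to 2.03 to 2.40 and 29.7 to 35.3 CPM. The rise of the leukocyte sum was that of Cd68, a lysosomal protein of macrophages (1.95 ± 0.217 and 29.2 ± 2.77 CPM, 3.89 on the log2 scale), and Fcer1g, a subunit of immune receptors, with 2, 0 and 0 reads in control and 66, 62 and 59 reads in induced libraries. Of the leukocyte genes, 5 were at 0 reads in every library, among them Ptprc, which encodes the defining antigen CD45. Pecam1, which encodes the endothelial antigen CD31, had at most 5 reads in any library. The part of these markers in the changes of the contractile genes was not tested.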

How the data were processed

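Reads of 6 mouse libraries, 3 control and 3 induced, were grouped by their labels. The authors deposited raw read counts per gene and library as whole numbers, and the submitters' processing notes name HISAT2 2.0.5, featureCounts 1.5.0-p3, DESeq2 1.16.1 and the build mm10, without giving the strand setting. The authors also deposited FPKM values, which are those counts divided by gene length and library depth. The deposited fold changes and p-values of the authors and their Gene Ontology tables were not used. Coordinates are those of GENCODE M21 (GRCm38), which 98.3% of the deposited genes found there share.

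The counts went into edgeR 4.0.16 under R 4.3.3 (filterByExpr with a minimum count of 10 and a minimum total of 15, TMM scaling, two-sided quasi-likelihood test, Benjamini-Hochberg adjustment over 14246 genes, threshold 0.05). Standard errors were derived from the F statistic, and intervals of folds are 1.96 standard errors on the log2 scale. The same steps were tested on simulated data drawn for this comparison and 14246 genes, of which few were changed. There, 89% of 100 genes changed by 1 on the log2 scale and 72.7% of 99 changed by 0.5 were called, with 11 false calls. In the data 64.8% of genes were called, so the simulation does not show how scaling and false calls behave when most genes change.

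The 10 members and all lists were chosen with earlier results of these data known. All members were named, with the 3 genes of smallest p and the 2 of highest mean CPM of each pathway list. The most abundant 2 of each cell type list were named too, and genes of the family and SRF lists could be named freely. Des, Tbx18, Myh6, Ptprc, Pecam1, Kcnmb1, Krt19, Aldh1a2, Pdgfra, Fap, Tnnt3, Myog, Myod1, Myh3 and Myl7 were named after their values were seen. So were Lum, Postn, Dcn, Col3a1, Thy1, Msln, Tcf21 and Wt1. Motifs and CpG dinucleotides were counted in promoter windows of RefSeq (GRCm38.p6). The alternatives changed the test (DESeq2 1.42.0, which brings its own scaling), the scaling (median-ratio factors, or the library totals only), the filter (none, or a mean count of 10 with 1 CPM in at least 3 libraries), the unit (limma 3.58.1 on log2 FPKM with 1 or 0.1 added, which changes test and scaling too), the threshold (0.01), the replicate number as a block, and the set of libraries (each one omitted in turn). No pair of libraries of a group held identical values, and each pair differed by more than sampling noise (chi-square per degree of freedom 2.56 to 8.91).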

Additional observations from a re-analysis of the deposited data

How the results depend on the processing

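None of the 126 values of tested contractile genes under the alternatives turned its direction, and 3 crossed the threshold, each of them a value of Tagln that became called: -0.25 with limma on log2(FPKM + 1), -0.54 with limma on log2(FPKM + 0.1) and -0.81 without induced library 2, within a range of -0.81 to -0.43 over the libraries left out. Of 545 values of 39 genes in the lists, 13 crossed the threshold, all of Elk1 except 1 of Myl6, and 7 turned direction, all without a call. For Myl6 these were -0.025 with library totals alone, -0.00012 with the replicate block and values within -0.077 to 0.15 over the libraries left out. For Elk4 they were -0.027 with library totals alone and a value within -0.031 to 0.044 over the libraries left out. Among all genes, 8514 to 9348 were called when a library was left out, 8593 with DESeq2 and 9063 with the replicate block.

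Samples of one number did not deviate together (correlations -0.03, -0.03 and 0.03), so no pairing by number was detected. The labels do not say whether samples of one number were handled together, and these correlations cannot settle that. The fit with the replicate block called the same number of contractile genes, 8. Adding 1 to FPKM shrank low genes most, to 0.77 for Myh11 and -1.80 for Cnn1 on the log2 scale. Depth limits Myocd, whose log2 fold change without a filter was -1.62 (SE 1.69, adjusted p = 0.513 in edgeR), and Tagln. With 3 libraries per group, an outlying library cannot be called by a rank rule.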

Other observations

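Some skeletal muscle genes had most of their reads in induced library 2, a pattern chosen after its values were seen, while Mylpf, Tnnt3 and the skeletal kinase gene Mylk2 did not. Myog, a factor of skeletal muscle differentiation, had 0 reads in the control libraries and 3, 19 and 0 reads in induced libraries 1 to 3. Myod1, which sets the skeletal muscle fate, had 0 control reads and 1, 14 and 1 induced reads. Myh3, the embryonic skeletal myosin, had 0, 1 and 0 control reads and 1, 25 and 0 induced reads. Among the 9 tested contractile genes, induced library 2 was the lowest of the induced libraries for Acta2, Cnn1, Cnn2, Lmod1, Smtn and Actg2 and the highest for Mylk, Myh11 and Tagln. Without it Tagln became called (adjusted p = 0.0384 in edgeR, from 0.0718), and the other calls did not change. The atrial light chain gene Myl7 had 0 reads in every control library and 34, 20 and 20 reads in induced libraries, at least 25.1-fold higher when 3 counts are taken as the limit over the control group.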
